A study of Mus musculus with 6 samples.

Results

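The S100a calcium-binding proteins are a family of small dimeric proteins, encoded by neighbouring mouse genes, and 7 of them are described here: S100a6, S100a10, S100a11, S100a4, S100a1, S100a13 and S100a16. They were chosen by gene name from the 28786 genes on the arrays because S100a6 stood far above wild type in differentiating Dnmt3a-null cells. All 7 were among the 18062 genes bright enough to be tested. The values of differentiating KO against WT cells therefore chose the genes and are given below as a description with no test.

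Each array carried Dnmt3a-null (KO) RNA in one dye and wild-type (WT) RNA in the other, so that every array yields a direct KO over WT ratio. The groups were differentiating KO cells and differentiating WT cells, on 2 arrays, and proliferating KO cells and proliferating WT cells, on 4 arrays. All were neural stem cell cultures grown from the subventricular zones of mice at postnatal day 14 to 21. Proliferating cells were kept in FGF-2 and EGF, each at 10 ng/ml. Differentiating cells had been replated for 2 days with these mitogens and then spent 3 days without them. The labels call the arrays biological replicates but do not say how many mice stood behind a culture, whether mice were pooled, or how the null allele was made. The p-values below measure the spread between these arrays.

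S100 proteins bind calcium through a pair of EF-hand motifs, and most of them then expose a surface that grips a partner protein. They pass calcium signals on to the cytoskeleton, to annexins at membranes and to enzymes, and some are also released and act outside the cell. In the brain the family is best known from S100b, a widely used astrocyte marker. Dnmt3a, which the KO cells lack, is a methyltransferase that places new methyl groups on cytosines, mostly those followed by guanine (CpG).

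All 7 genes lie on chromosome 3 in 2 groups, by the probe positions that the files give on build mm7. S100a1 (90642309 to 90642368), S100a13 (90647126 to 90655132), S100a16 (90672469 to 90672528), S100a4 (90736122 to 90736182) and S100a6 (90744440 to 90744499) span 102191 bases. S100a11 (93627811 to 93627870) and S100a10 (93666231 to 93666290) span 38480 bases, and 2883312 bases separate the groups. The S100a1 probe is on the minus strand and the other 6 are on the plus strand. S100a4 and S100a6 lie close together in the same orientation, with S100a5 (90741771 to 90741830), which was not well above background in any channel, between them. The promoters of S100a4 and S100a6 are shown because these genes gave opposite KO over WT ratios in differentiating cells. The sequences are the 250 bases before each annotated start, from RefSeq on GRCm38.p6, 5′ to 3′ on the gene's own plus strand, with each CpG in capitals. S100a6 is at chr3:90612644-90612893 and S100a4 at chr3:90603520-90603769.
S100a6: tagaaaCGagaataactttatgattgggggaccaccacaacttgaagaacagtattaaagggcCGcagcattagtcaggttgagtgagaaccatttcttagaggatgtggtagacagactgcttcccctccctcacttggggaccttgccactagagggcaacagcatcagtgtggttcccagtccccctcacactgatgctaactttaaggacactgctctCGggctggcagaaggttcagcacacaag
S100a4: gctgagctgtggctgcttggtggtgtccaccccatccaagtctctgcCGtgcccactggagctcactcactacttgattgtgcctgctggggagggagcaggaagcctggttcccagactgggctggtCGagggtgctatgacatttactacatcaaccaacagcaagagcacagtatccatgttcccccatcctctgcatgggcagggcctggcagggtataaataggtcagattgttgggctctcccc

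The S100a6 window held 3 CpG sites and the S100a4 window 2, against a median of 6 over the 32544 distinct windows of all genes. Of all windows, 71.2% held at least as many as S100a6 and 81.4% at least as many as S100a4. The window of S100a11 held 11, that of S100a13 held 13 and that of S100a1 held 8; the windows of S100a1 and S100a13 overlap on opposite strands. S100a16 had 2 annotated windows, with 1 and 3 sites. RefSeq windows were found for 6 of the 7 genes, S100a10 being the exception. A few motifs were looked for on both strands. TATAAA, the letters of a TATA box, occurred in the S100a4 window and in 12.3% of all windows. CCAAT occurred in the S100a6 window and in 33.8% of all windows. GGGCGG, which itself holds a CpG, occurred in the S100a11 window and in 1 S100a16 window, and in 33.0% of all windows. TGANTCA, where N is any base, occurred in the same 2 windows and in 6.73% of all. These matches describe letters only, and methylation was not measured on these arrays.

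The arrays themselves had a few features that touch the values below. Between 52.3% and 59.1% of gene spots per channel were well above background, which is Agilent's call that a signal exceeds the local background. Each of the 7 genes had 1 probe and 1 spot per array, and all 84 of its channels were well above background with none saturated. All 3 Dnmt3a probes were fainter in the KO channel of every array, with mean log2 ratios between -1.67 and -0.40; whether a probe lies in the deleted part is not known here. The defining stem cell markers Nes and Sox2 were well above background in all 12 channels. Log2 ratios of proliferating replicate 1 correlated at 0.046 to 0.390 with those of the other arrays, over all genes. On proliferating replicates 3 and 4 the channels were unequal in sex-linked genes, with Ddx3y at log2 8.46 and 8.83 in KO cells and 6.05 and 5.89 in WT cells. On the same arrays Xist was at 11.27 and 11.06 in KO cells and 12.69 and 13.34 in WT cells. In all other channels, among them every differentiating one, Xist was at 5.92 to 6.08. For the 7 S100a genes, results are therefore given without replicates 3 and 4 where that changes them. Values of the other named genes were not refitted without these arrays.

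In differentiating cells both arrays showed more signal in KO cells for 6 of the 7 genes and less for S100a4. Of all genes, 30.4% were higher in KO cells on both arrays, and since the rule used this contrast nothing is read from the count. S100a6, S100a10 and S100a1 were at least 2-fold higher on both arrays, as were 1.86% of all genes. The median log2 ratio was 1.18 over the 7 genes, 1.08 without S100a6, and -0.01 over all genes tested. These values come from the contrast that chose the genes and are likewise a description only. In proliferating cells only S100a1 was higher in KO cells on all 4 arrays, as were 9.84% of all genes, and it was also the only gene of the 7 to pass the test. None of the 7 was lower in KO cells on all 4 arrays, as were 8.44% of all genes. The median log2 ratio of the 7 genes was then 0.28. All signals below are log2 intensities after background correction and normalization. They can be compared between samples for a gene but not between genes, since each probe has its own brightness.

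**Figure D1:**
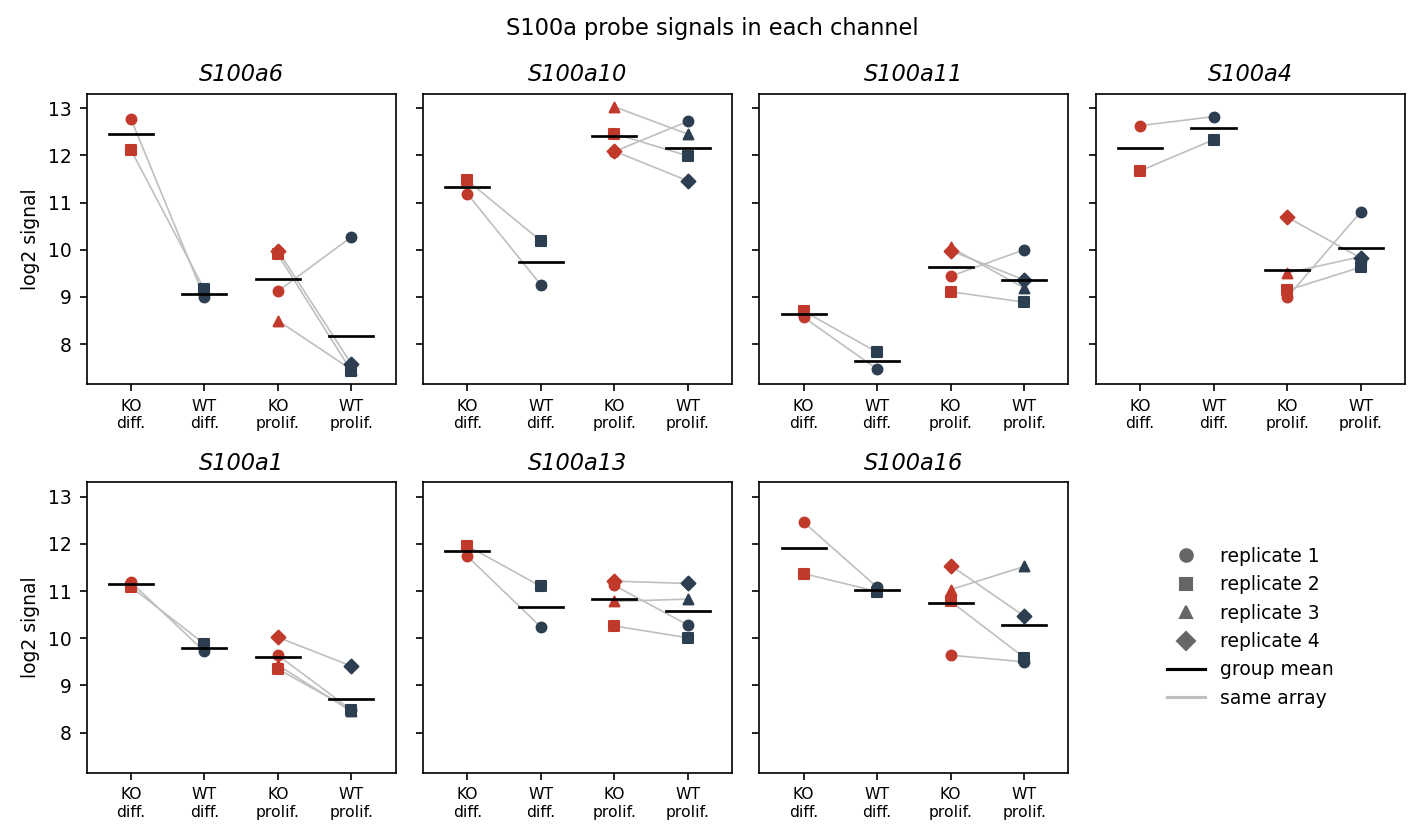
Log2 signal of each S100a probe (y axis) in differentiating KO and WT cells (2 arrays) and proliferating KO and WT cells (4 arrays). Points are samples with a shape for each replicate number, black bars are group means and grey lines join channels of 1 array; the 2 differentiating KO samples of S100a6 sit at 12.12 and 12.78, above its other 10 samples.

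S100a6, also called calcyclin, is a calcium sensor that binds annexins, the ubiquitin ligase adaptor Cacybp and cytoskeletal proteins, and in brain it has been found in astrocytes and their precursors. Its log2 signal was 12.78 and 12.12 in differentiating KO cells, against 8.99 and 9.16 in differentiating WT cells. It was 9.12, 9.90, 8.50 and 9.98 in proliferating KO cells, against 10.27, 7.43, 7.46 and 7.58 in proliferating WT cells. The differentiating KO samples were the 2 brightest of the 12, and the other 3 groups overlapped. In order of their means the groups were differentiating KO cells (12.45 ± 0.46, SD, n = 2), proliferating KO cells (9.37 ± 0.70, SD, n = 4), differentiating WT cells (9.07 ± 0.12, SD, n = 2) and proliferating WT cells (8.18 ± 1.39, SD, n = 4). Neighbours among the last 3 differed by less than their spread. The differentiating KO signal was on average 10.4-fold that of WT cells.

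In proliferating cells the log2 KO over WT ratio of S100a6 was -1.15, 2.48, 1.04 and 2.40. On 3 of the 4 arrays there was more S100a6 in KO cells, and replicate 1 had more in WT cells. The mean of 1.19 ± 1.69 (SD, n = 4) did not pass limma's test (adjusted p = 0.239). It was WT signal that set replicate 1 apart: the other 3 WT cultures averaged 7.49 ± 0.08 (SD, n = 3). Without replicate 1 the fitted ratio was 1.78 (adjusted p = 0.0289), and without replicates 3 and 4 it was 0.66 (adjusted p = 0.683). S100a6 ratios also moved with the dye. On the arrays with KO RNA in Cy5 they were 2.97 (differentiating) and -1.15 and 1.04 (proliferating), and with KO RNA in Cy3 they were 3.79 (differentiating) and 2.48 and 2.40 (proliferating). The fitted dye term was -0.97 (SE 0.32) on the log2 scale, and the means above hold equal numbers of both orientations.

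**Figure D2:**
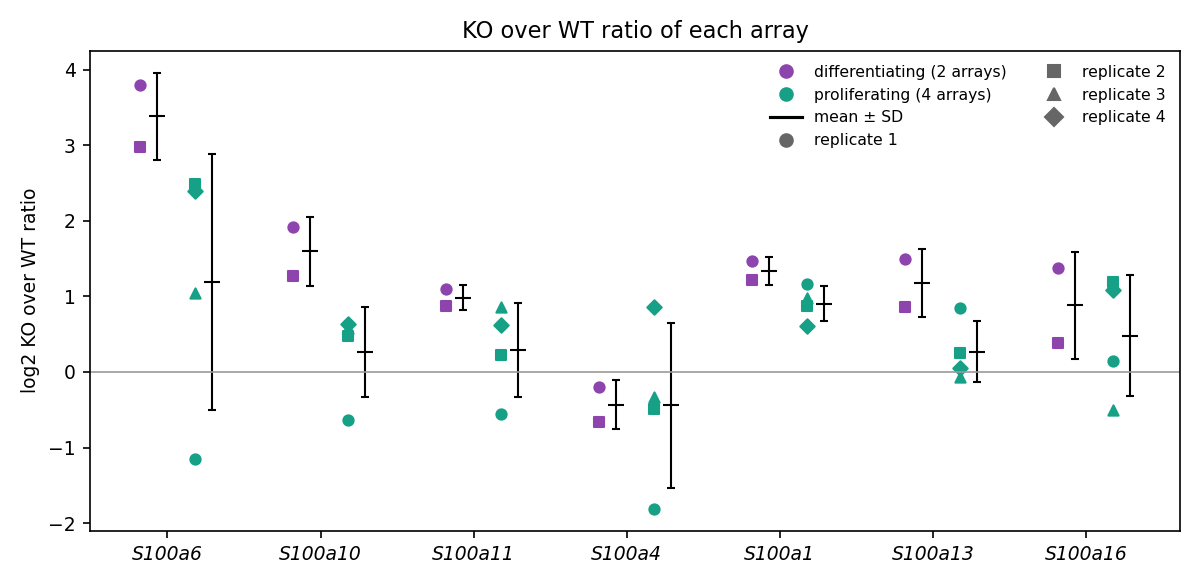
Log2 KO over WT ratio (y axis) of each S100a gene on the 2 differentiating arrays (left of each pair) and the 4 proliferating arrays, with mean ± SD as black marks. S100a4 lies below 0 on both differentiating arrays and S100a1 lies above 0 on all 6 arrays.

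S100a10, or p11, differs from its relatives in that it no longer needs calcium; it pairs with annexin A2 at the plasma membrane and carries ion channels and receptors there. Its log2 signal was 11.19 and 11.47 in differentiating KO cells, against 9.26 and 10.19 in differentiating WT cells. In proliferating cells it was 12.08, 12.46, 13.03 and 12.09 in KO cells, against 12.72, 11.99, 12.45 and 11.46 in WT cells. The genotypes were apart in differentiating cells, 3.02-fold on average, and overlapped in proliferating cells. There the log2 ratio was 0.26 ± 0.60 (SD, n = 4; limma, adjusted p = 0.578), with -0.63 on replicate 1 and 0.47 to 0.63 on the other 3 arrays.

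S100a11, a partner of annexin A1, had the same arrangement with smaller differences. Its log2 signal was 8.57 and 8.70 in differentiating KO cells, against 7.47 and 7.83 in differentiating WT cells. In proliferating cells it was 9.44, 9.11, 10.05 and 9.98 in KO cells, against 10.00, 8.89, 9.19 and 9.36 in WT cells. The genotypes did not overlap in differentiating cells, with a mean difference of 1.98-fold, and overlapped in proliferating cells. The proliferating log2 ratio was 0.28 ± 0.62 (SD, n = 4; limma, adjusted p = 0.614), and replicate 1 was again the array with more signal in WT cells (-0.56). Without replicates 3 and 4 the fitted proliferating ratio was -0.17 for S100a11 and -0.08 for S100a10.

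S100a4, known as metastasin or fibroblast-specific protein, binds non-muscle myosin and is a marker of motile mesenchymal cells and, in rat, of white-matter astrocytes. It was the only gene of the 7 with less signal in differentiating KO cells on both arrays: 12.63 and 11.67, against 12.82 and 12.33 in differentiating WT cells. The genotypes overlapped, and the log2 ratio was -0.43 ± 0.33 (SD, n = 2). In proliferating cells its signal was 8.99, 9.14, 9.51 and 10.69 in KO cells, against 10.80, 9.63, 9.85 and 9.83 in WT cells. On 3 of the 4 arrays there was less signal in KO cells and replicate 4 had more. The log2 ratio was -0.44 ± 1.09 (SD, n = 4; limma, adjusted p = 0.568), and it was -1.15 without replicates 3 and 4 (adjusted p = 0.0703). S100a4 and S100a6 thus had log2 ratios of -0.43 and 3.38 in the same differentiating cells.

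S100a1, known from heart muscle where it binds the calcium pump and the ryanodine receptor, had the smallest spread of proliferating ratios of the 7. Its log2 signal was 11.19 and 11.09 in differentiating KO cells, against 9.72 and 9.88 in differentiating WT cells. In proliferating cells it was 9.64, 9.35, 9.43 and 10.02 in KO cells, against 8.48, 8.48, 8.45 and 9.41 in WT cells. Every array had more S100a1 in KO cells, as did 5.84% of all genes, although the proliferating groups overlapped because both channels of replicate 4 were bright. The proliferating log2 ratios were 1.16, 0.87, 0.98 and 0.61, a mean of 0.91 ± 0.23 (SD, n = 4) or 1.87-fold. This passed limma's test (adjusted p = 0.0321), so 1 of the 7 genes passed, where 0.952% of all genes tested did (0.615% higher and 0.338% lower in KO cells). The fit shares its spread and its dye term with the differentiating arrays. The call was lost whichever of the 6 arrays was left out, with log2 ratios of 0.83 to 1.01 and adjusted p between 0.0663 and 0.129. Without replicates 3 and 4 the ratio was 1.02 (adjusted p = 0.0608). Of the 172 genes that passed, 64.5% were higher in KO cells, or 77.8% of the 135 that passed with arrays centred on their median.

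S100a13, which helps to export fibroblast growth factor 1 and interleukin 1 alpha by a route outside the classical secretory pathway, had log2 signals of 11.74 and 11.96 in differentiating KO cells, against 10.24 and 11.10 in differentiating WT cells. Its proliferating signals were 11.12, 10.26, 10.78 and 11.21 in KO cells, against 10.28, 10.01, 10.83 and 11.16 in WT cells. The genotypes were apart in differentiating cells, 2.27-fold on average, and overlapped in proliferating cells, where the log2 ratio was 0.27 ± 0.40 (SD, n = 4; limma, adjusted p = 0.541). S100a16, a widely expressed member, had log2 signals of 12.46 and 11.37 in differentiating KO cells, against 11.08 and 10.99 in differentiating WT cells. Its proliferating signals were 9.64, 10.78, 11.03 and 11.54 in KO cells, against 9.5, 9.59, 11.52 and 10.47 in WT cells. Its 2 differentiating arrays were unequal, with log2 ratios of 1.38 and 0.38. The proliferating ratio of 0.48 ± 0.80 (SD, n = 4) did not pass (limma, adjusted p = 0.153), and the dye term was -0.60 (SE 0.10). At an unadjusted p under 0.05, 3 of the 7 genes were below the threshold in proliferating cells (S100a1, S100a6 and S100a16), as were 16% of all genes tested.

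The KO over WT ratio was larger in differentiating than in proliferating cells for 6 of the 7 genes, as a difference of the fitted log2 ratios, under every alternative tried; for S100a4 the direction was not settled. The difference was 2.19 (SE 0.68) for S100a6, 1.33 (SE 0.33) for S100a10, 0.91 (SE 0.32) for S100a13 and 0.70 (SE 0.39) for S100a11. It was 0.44 (SE 0.18) for S100a1, 0.40 (SE 0.21) for S100a16 and for S100a4 it was 0.02 (SE 0.55), ranging over the alternatives from -0.38 to 0.72. These values hold the contrast that chose the genes and were not tested, and the alternatives were fitted to the same arrays. The share of all genes with a larger ratio in differentiating cells was not counted, so nothing is read from the count.

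The same signals compared along the other axis show how each gene moved when the mitogens were withdrawn, within each genotype. In WT cells S100a4 and S100a1 rose, and S100a10 and S100a11 fell. In KO cells S100a4 and S100a1 rose and no other gene passed. All proliferating arrays were on 1 slide and both differentiating arrays on another, so withdrawal and slide cannot be told apart. Proliferating replicates 3 and 4 also differed from both differentiating arrays in Xist. The tests share the differentiating channels with the contrast that chose the genes, and S100a6 was left out of them.

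S100a4 rose by a log2 value of 2.57 (SE 0.65, 5.93-fold) in KO cells and 2.55 (SE 0.65, 5.85-fold) in WT cells (limma, adjusted p = 0.0293 and 0.0302), and both groups of differentiating samples lay above all proliferating samples. S100a1 rose by 1.53 (SE 0.28, 2.89-fold; adjusted p = 0.00876) in KO cells and 1.09 (SE 0.28, 2.13-fold; adjusted p = 0.029) in WT cells. S100a10 changed by -1.09 (SE 0.44; adjusted p = 0.116) in KO cells and fell 5.37-fold, by -2.43 (SE 0.44; adjusted p = 0.00833), in WT cells. S100a11 changed by -1.01 (SE 0.47; adjusted p = 0.166) in KO cells and fell 3.27-fold, by -1.71 (SE 0.47; adjusted p = 0.0383), in WT cells. S100a10 and S100a11, which form the other gene group, were thus the genes with less signal after withdrawal.

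S100a13 changed by 1.01 (SE 0.43; limma, adjusted p = 0.134) in KO cells and 0.09 (SE 0.43; adjusted p = 0.904) in WT cells, and S100a16 by 1.16 (SE 0.47; adjusted p = 0.121) and 0.76 (SE 0.47; adjusted p = 0.300). S100a6 was higher by 3.08 (SE 0.82, 8.44-fold) in differentiating KO cells and by 0.89 (SE 0.82) in differentiating WT cells, without a test. Thus 2 of the 6 genes passed in KO cells, where 15.2% of 18050 genes did (9.14% higher and 6.09% lower), and 4 of the 6 in WT cells, where 14.9% did (9.03% higher and 5.89% lower). All 6 calls were lost without proliferating replicate 2 or either differentiating replicate, and all but that of S100a10 without proliferating replicate 1. Without replicate 3 S100a4 lost its call in both genotypes and S100a1 in WT cells, and none was lost without replicate 4. Adjusted p was 0.0571 to 0.145 for calls lost without a proliferating replicate and 0.064 to 0.331 without a differentiating one. Without both replicates 3 and 4, S100a10 was the only one of the 4 to pass in WT cells (adjusted p = 0.0167), while S100a1 (adjusted p = 0.0439) and S100a4 (adjusted p = 0.0311) still passed in KO cells.

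The quantile step that gives all arrays the same distribution of mean signals also mattered. With it 60.0% of the genes that passed in KO cells and 60.5% in WT cells were higher after withdrawal, and without it 14.7% and 15.1%, while the median change of all genes was 0.05 with it and -0.29 without it. Without that step the changes of S100a1 and S100a4 were 0.98 and 2.00 in KO cells, and 0.54 (adjusted p = 0.191) and 1.98 (adjusted p = 0.0516) in WT cells. S100a10 then passed in KO cells at -1.65 (adjusted p = 0.0262), and S100a11 at -1.46 (adjusted p = 0.0474). The directions of these 4 genes were the same with and without it.

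**Figure D3:**
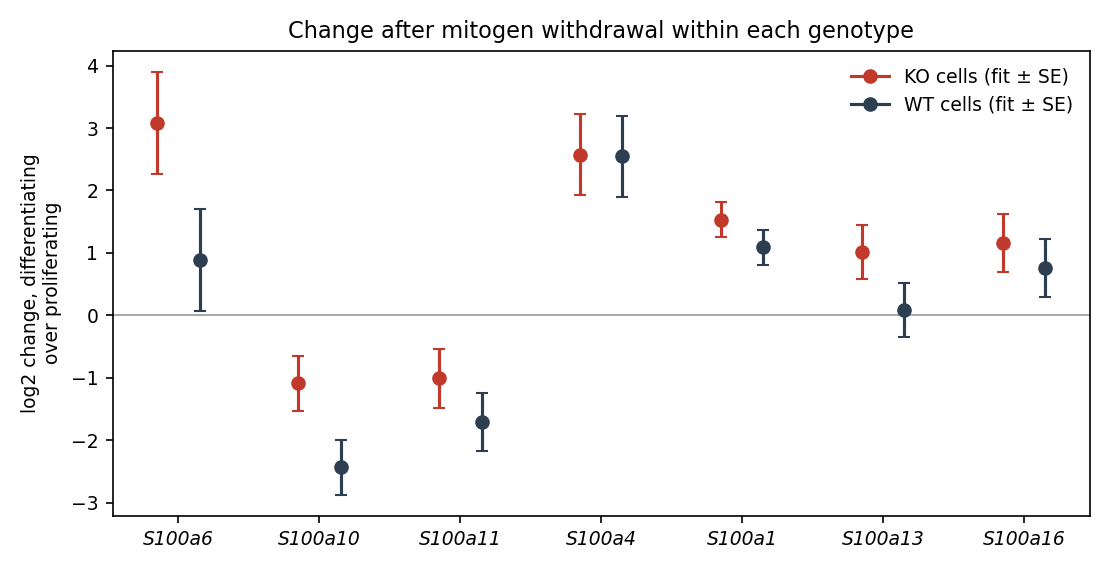
Log2 change from proliferating to differentiating cells (y axis) for each S100a gene in KO cells (left of each pair) and WT cells, as the limma fit ± SE. S100a10 and S100a11 lie below 0 and S100a4 and S100a1 above 0 in both genotypes, and S100a6 is at 3.08 in KO and 0.89 in WT cells.

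Most other S100 genes were near background. Of 10 further genes listed, 9 were on the array and 4 were tested. S100a5, S100a7a, S100a8 and S100g were not well above background in any channel, and S100a9 was so in 1 KO and 1 WT channel of proliferating cells. S100b, on chromosome 10, had log2 signals of 14.29 and 13.85 in differentiating KO cells, against 12.31 and 11.77 in differentiating WT cells, and these groups did not overlap. Its proliferating log2 ratios were 0.27, 1.12, 2.54 and 2.22, all with more signal in KO cells, and their mean of 1.54 ± 1.04 (SD, n = 4) did not pass (limma, adjusted p = 0.153). S100a3, on chromosome 3, had a log2 ratio of -0.05 in differentiating and 0.21 in proliferating cells (adjusted p = 0.528), and rose with withdrawal by 1.20 in KO cells (adjusted p = 0.0227) and 1.46 in WT cells (adjusted p = 0.0109). S100a14 had ratios of -0.03 and 0.13 (adjusted p = 0.461) and rose by 1.12 in KO cells (adjusted p = 0.00269) and 1.28 in WT cells (adjusted p = 0.00126). In proliferating cells it exceeded background on 2 arrays in KO cells and 1 in WT cells. The S100P-binding protein gene S100pbp had ratios of -0.23 and -0.12 (adjusted p = 0.536).

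The genes next to the S100a groups were looked at for the same pattern. S100a14 (90659252 to 90659311) and S100a3 (90732676 to 90732735) lie within the first group, and their ratios are given above. Chtop, 11422 bases before the S100a1 probe, had a mean log2 ratio of 0.02 in differentiating and 0.17 in proliferating cells. The next genes on the other sides, S100a7a, Tchhl1 and Tdpoz1, were not well above background in any channel. Beyond them, the nearest tested gene before S100a11 was Tchh, 77105 bases away, which had more signal in KO cells on all 6 arrays (means 0.47 and 0.49; limma, adjusted p = 0.128 in proliferating cells) but was well above background in only 1 KO and 1 WT differentiating channel and in 2 KO proliferating channels. Them4, 539458 bases after S100a10, had 0.11 and -0.04. LOC433614, the nearest tested gene after S100a6 at 467599 bases, had 0.02 and 0.20. It was not well above background in any differentiating channel.

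Annexins are membrane-binding proteins and Ahnak is a giant scaffold that the S100a10 and annexin A2 complex holds at the membrane. Of 9 such genes tested, 7 had more signal in KO cells on both differentiating arrays, as did 30.4% of all genes, and none had less; 2 of the 7, Anxa1 and Anxa11, were near background there. Their median log2 ratio was 0.48 in differentiating and 0.30 in proliferating cells, against -0.01 for all genes in both. Ahnak had log2 signals of 11.06 and 11.21 in differentiating KO cells, against 8.46 and 8.71 in differentiating WT cells, 5.87-fold on average. In proliferating cells its ratio was 0.33 ± 0.53 (SD, n = 4; limma, adjusted p = 0.484). With withdrawal Ahnak rose by 3.45 (adjusted p = 0.0192) in KO cells and changed by 1.23 (adjusted p = 0.308) in WT cells. In proliferating cells it exceeded background on 2 arrays in KO cells and 3 in WT cells.

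Anxa2, the partner of S100a10, had log2 signals of 9.74 and 8.89 in differentiating KO cells, against 8.28 and 8.07 in differentiating WT cells. Its proliferating log2 ratios were -1.15, 0.02, 1.53 and 0.81 (mean 0.30 ± 1.15, SD, n = 4; limma, adjusted p = 0.801), and as with S100a10 replicate 1 was the array with more signal in WT cells. Anxa6 had 0.66 ± 0.15 (SD, n = 4) in proliferating cells, just outside the threshold (limma, adjusted p = 0.0509). It fell with withdrawal by -1.13 in KO cells (adjusted p = 0.00655) and -1.20 in WT cells (adjusted p = 0.00446). Anxa1, the partner of S100a11, and Anxa3 were not well above background in any differentiating channel, and their proliferating ratios were 0.22 and 0.68. Anxa11 was well above background in 1 KO channel of each condition and in no WT channel, so its ratios are not given. The others had mean differentiating and proliferating ratios of 1.00 and 0.43 (Anxa7), 0.48 and -0.60 (Anxa5), and -0.13 and -0.07 (Anxa4). By limma none of the 9 passed in proliferating cells, and 2 were below an unadjusted p of 0.05, where 16% of all genes were.

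Other proteins known to bind S100 members gave a flatter picture. Of 20 such genes 16 were tested, with a median log2 ratio of 0.00 in both conditions. By limma none passed in proliferating cells, and none was below an unadjusted p of 0.05. Il1a, Trpv5, Htr1b and Tlr4 were not well above background in any channel. The 4 with the largest mean ratio over all arrays in absolute size were the sphingosine kinase Sphk1, at 0.30 in differentiating and -0.42 in proliferating cells, Fgf1 (0.00 and 0.25), the tumour suppressor Trp53 (-0.26 and -0.01) and its regulator Mdm2 (-0.07 and -0.13). Among genes named after their values were seen, the mean ratio was 0.50 in differentiating cells for Plat, tissue plasminogen activator (0.15 and 0.85 on the 2 arrays), and Cacybp, the partner of S100a6, had -0.31.

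**Figure D4:**
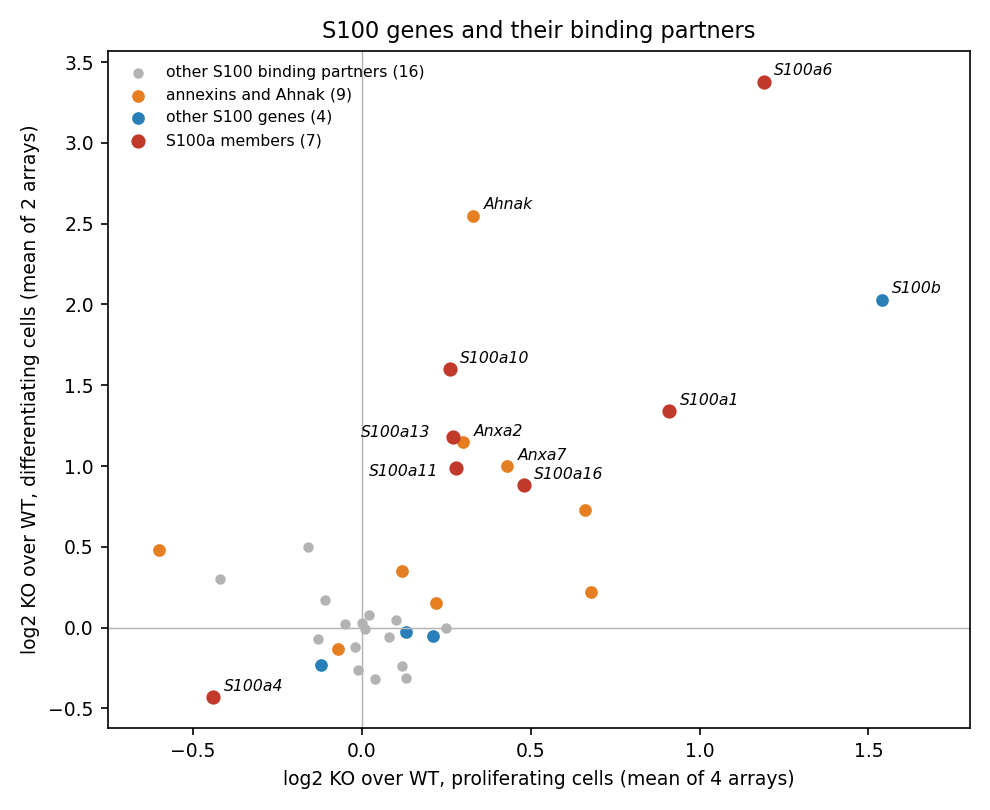
Mean log2 KO over WT ratio in proliferating cells (x axis, 4 arrays) against differentiating cells (y axis, 2 arrays), each point being 1 gene. Of the S100a genes (red) 6 of 7 lie above 0 on the y axis, with Ahnak at 2.55 and S100b at 2.03, while the other binding partners (grey) have a median of 0.00 on both axes.

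Markers of several cell types also differed between KO and WT cells. In bulk RNA more cells of a type cannot be told apart from more RNA per cell. The astrocyte list, which holds S100b, had a median log2 ratio of 0.99 in differentiating and 0.48 in proliferating cells. Its 12 genes had a mean log2 signal of 12.80 to 13.38 in differentiating KO cells, against 11.67 to 12.23 in differentiating WT cells, and 10.95 to 11.87 in proliferating KO cells, against 9.72 to 11.19 in proliferating WT cells. On both differentiating arrays 9 of the 12 genes had more signal in KO cells, as did 30.4% of all genes, and 2 had less. Gfap, the defining astrocyte filament, had ratios of 2.64 and 0.21. The 2 with less were Fgfr3 (-1.16 and -0.79) and Aldoc (-0.50 and -0.54), which were lower in KO cells on all 6 arrays and are named after their values were seen. The oligodendrocyte list of 14 genes had medians of 2.20 and 1.32. Its mean log2 signal was 12.67 to 12.84 in differentiating KO cells, against 10.90 to 11.22 in differentiating WT cells, and 10.46 to 12.10 in proliferating KO cells, against 9.38 to 10.25 in proliferating WT cells. On both differentiating arrays 11 of the 14 had more signal in KO cells, as did 30.4% of all genes, and 3 had less. In proliferating cells 3 of the 14 passed limma's test, all higher in KO cells, as did 0.615% of all genes tested. Sox10 had ratios of 2.19 and 2.46 and Mbp of 3.28 and 2.82. The 3 with less were Olig1 (-0.34 and 0.10) and, named after their values were seen, Olig2 (-0.70 and -0.12) and Pdgfra (-0.38 and 1.32).

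The neuronal list had a median log2 ratio of -1.17 in differentiating cells, against -0.01 for all genes tested. Of its 12 genes, 11 had less signal in KO cells on both arrays. The share of all genes with less signal on both arrays was not counted, so nothing is read from that count. In proliferating cells the median was -0.10, and 1 of the 12 genes passed limma's test, higher in KO cells. The 12 stem cell genes had medians of -0.26 and -0.14, with single genes further from 0 in both directions. Prom1 had means of 1.93 and 0.93 and was higher in KO cells on all 6 arrays. It was well above background in only 2 WT proliferating channels. Hes5 had means of -1.26 and -1.24 and was lower in KO cells on all 6 arrays. The part of these cell types in the S100a values was not tested.

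Markers of other cell types that the dissected tissue could hold were in part not detected. Of 12 fibroblast and meningeal genes, 8 were tested, with medians of 0.29 in differentiating and 0.16 in proliferating cells, and Dcn and Lum were not well above background in any channel. Their mean log2 signal was 7.07 to 7.15 in differentiating KO cells, against 6.81 to 6.86 in differentiating WT cells, and 6.93 to 7.18 in proliferating KO cells, against 6.71 to 7.00 in proliferating WT cells. Col1a1 had ratios of 1.21 and 0.69, and Fbln1, well above background in every channel, had 0.97 and 0.58. On both differentiating arrays 5 of the 8 had more signal in KO cells, as did 30.4% of all genes, and 2 had less. Pdgfrb, named after its values were seen, was well above background in every differentiating channel. It rose with withdrawal by 3.51 in KO cells and 4.12 in WT cells (limma, adjusted p = 0.000918 and 0.000514). Of 12 endothelial and mural genes, 8 were tested, with a median of 0.32 in both conditions, and Cdh5, Cldn5 and Rgs5 were not well above background in any channel. Acta2 and Tagln of that list, named after their values were seen, were well above background in every channel. Their mean ratios were 0.21 and 0.12 for Acta2, and 0.43 and 1.29 for Tagln. Within that list Cav1, a caveolar membrane protein also found outside endothelium, had log2 ratios of 3.47 and 3.33 on the differentiating arrays and a proliferating mean of 0.61, and Kdr had means of 1.07 and 0.52. Of 10 microglial genes, 7 were not well above background in any channel, among them Aif1, Itgam and Csf1r. The 2 that were tested, Fcer1g and C1qb, were well above background in every channel. Their mean ratios in differentiating and proliferating cells were -0.08 and -0.03 for Fcer1g, and -0.13 and -0.03 for C1qb. Ependymal genes had medians of 0.44 and 0.02, Schwann and neural crest genes 0.39 and 0.16, and choroid plexus genes 0.03 and 0.09, with Ttr and Kl not well above background in any channel. Of 9 ependymal genes tested, 7 had more signal in KO cells on both differentiating arrays, as did 30.4% of all genes, and 2 had less. Single genes of each of these lists were further from 0. The ependymal genes Foxj1 and Mlf1 had means of 1.27 and 0.59, and 1.44 and 0.5. Erbb3 had 1.8 and 0.75, and Folr1 had 1.44 and 0.26. Dhh, in the Schwann and neural crest list, had means of 0.70 in differentiating and 3.64 in proliferating cells. It passed in proliferating cells (limma, adjusted p = 0.0276).

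The genes whose log2 signal followed S100a6 most closely over the 12 channels were Tmem88b (Pearson r = 0.945), Crym (0.933), Insc (0.933) and 4732418C07Rik (0.919), followed by a probe named in the files only by a sequence accession. Tmem88b, Insc and that probe were not well above background in any WT channel, and Crym was well above it in 1 WT channel of each condition. Over the 6 array ratios they were Btbd11 (0.994), Plec (0.992), Btbd9 (0.992), D330050I23Rik (0.991) and Dph1 (0.986). Plec encodes plectin, a linker of the cytoskeleton, with a mean log2 ratio of 1.05 in differentiating cells. Btbd11 at 0.23 and Dph1 at 0.15 followed the order of the arrays with a much smaller range. Among the S100a genes, signals correlated best with S100a6 for S100a1 (0.788) and least for S100a10 (-0.118). Ratios correlated best for S100a10 (0.923) and S100a11 (0.818) and least for S100a1 (0.144). Among 18050 genes, S100a1 ranked 215 by signals, and S100a10 ranked 163 and S100a11 726 by ratios. The channels share arrays, and the ratios of S100a6 were lowest on proliferating replicate 1. These correlations are a description and were not tested.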

How the data were processed

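The authors deposited, per spot and dye, intensity values for signal (mean) and local background (median) from Agilent Feature Extraction 9.5.1.1 on array design 014868, per the file headers, with 500 ng of RNA labelled. The authors' deposited log10 ratios equal the scanner's ratios turned to KO over WT (differences up to 5e-06), with column medians of 0; no source used here states what further centring was applied. Probe positions are on mm7. With limma 3.58.1 in R 4.3.3 (statmod 1.5.0, data.table version 1.17.8), normexp (offset 50) and loess within arrays were applied, leaving out 1639 control spots per array and outlier spots. The accession named 22951 of 41174 probes, 18223 kept the file's name, and the brightest probe stood for a gene. Genes were tested if well above background in 1 channel on at least 2 arrays. Log2 ratios were fitted with a coefficient per condition and a dye term (3 residual and 2.56 prior degrees of freedom). Changes with withdrawal came from the separate-channel fit after Aquantile (intraspot correlation 0.764; 7 residual and 2.85 prior degrees of freedom). Benjamini-Hochberg adjusted p-values, 2-sided, over all genes passed under 0.05. The fits were tested on simulated data, and the number of arrays limits the precision. Named were all 7 genes, Dnmt3a, the tested S100 and annexin genes and Ahnak, the 4 other partners of largest mean ratio, leading markers, nearest neighbours, and the 5 genes most like S100a6 on each measure. The genes and lists were chosen with earlier results of these data known. Alternatives are in the closing section.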

Additional observations from a re-analysis of the deposited data

Results flagged for a closer look

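In 4 proliferating samples, a value was set apart when its gap to the next, as a share of the whole range, exceeded Dixon's limit, which chance passes in about 1 of 20 groups. Of 21 sets of values 3 did. S100a6 had a log2 signal of 10.27 in WT cells of proliferating replicate 1, against 7.43 to 7.58 in the other 3 WT cultures (gap over range 0.947). S100a1 had 9.41 in WT cells of proliferating replicate 4, against 8.45 to 8.48 in the others (0.969); KO cells of that array were also its brightest, at 10.02. S100a10 had a log2 KO over WT ratio of -0.63 on proliferating replicate 1, against 0.47 to 0.63 (0.873).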

How the results depend on the processing

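With Agilent's processed signals, an offset of 10, the authors' value table, no filter on dim probes and the proliferating arrays alone, 278, 294, 270, 101 and 0 genes passed in proliferating cells, against 172 (limma; 2275 at an unadjusted p under 0.05 for the proliferating arrays alone). Leaving out 1 array gave 0 to 171 genes. S100a1 was no longer called, so that 0 of 7 genes passed, with median centring (adjusted p = 0.062), no filter (0.0544), the proliferating arrays alone (0.0921) and without replicates 3 and 4; 3 of the 7 were then below an unadjusted p of 0.05. Leaving out 1 proliferating array gave 0 to 1 of 7, the 1 being S100a6 without replicate 1. Over its 19 alternatives S100a1 ranged from 0.83 to 1.02 (adjusted p 0.0157 to 0.129). No called value changed sign. The differentiating S100a6 ratio ranged from 2.55 to 4.21, both ends from leaving out 1 differentiating array, which leaves the dye term to the other arrays.

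With withdrawal, 4921 genes passed in KO cells and 4671 in WT cells without Aquantile, and 1198 and 984 without replicates 3 and 4, against 2750 and 2693. Of the S100a genes, 4 of 6 then passed in KO cells and 2 in WT cells without Aquantile, and 1 in WT cells without replicates 3 and 4 (3 in KO cells, with S100a16 added at 1.70, adjusted p = 0.0371). Leaving out 1 array gave 230 to 4724 genes and 0 to 2 of the 6 in KO cells, and 200 to 3824 genes and 0 to 4 in WT cells. Without the filter S100a11 lost its call in WT cells (adjusted p = 0.0513). The cause of calls lost with fewer arrays was not tested.

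Deviations of same-numbered proliferating and differentiating arrays correlated at -0.368 and -0.288, but such arrays carry opposite dyes and the signs follow the dye, so this check cannot show whether the numbers pair them; the labels do not say that they do. With the replicate block 184 genes passed and S100a1 was at 0.91 (adjusted p = 0.0314). A slide block could not be fitted, since each slide holds 1 condition, and array weights were not run for withdrawal. All 7 genes were above background in every channel.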
